A study of Arabidopsis with 9 samples.

Results

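Polycomb repressive complex genes of Arabidopsis were examined in seedlings with mutations in genes of SWI/SNF chromatin remodelling complexes. The members are 10 genes chosen by their identifiers, namely CLF, SWN, EMF2, VRN2, FIE, MSI1, LHP1, RING1A, BMI1A and BMI1B. All 10 were found among the 31747 loci of the authors' deposited expression table, and all 10 reached the filter of at least 1 FPKM in at least 1 condition, as 18505 loci did. FPKM is a fragment count divided by the length of the transcript and the size of the library, so levels can be compared between genes.

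The labels give 9 samples of untreated 14-day-old seedlings grown in long days, 3 biological replicates each of swi3d-1, syd-5 and the wild type (WT). The deposited values are 1 pooled FPKM per locus for a condition whose name ends in 3d and occurs in no label, for syd-5 and for WT. The first of these is called the unlabelled condition here. Among the labelled genotypes swi3d-1 alone is missing from the table by name, and no name in the table equates it with the unlabelled condition. The levels of SYD and SWI3D, which bear on this, are given below. The labels give neither the kind of mutation in either allele nor the accession of the plants, and whole seedlings mix roots, leaves and meristems. Replicate values and read depth are not part of the table used here, which leaves the spread between replicates and any detection limit unknown.

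Polycomb proteins keep genes silent in cells where they should not act. Polycomb repressive complex PRC2 methylates a lysine in the tail of histone H3, and proteins of the PRC1 type read that mark or attach ubiquitin to histone H2A. In Arabidopsis seedlings they are known for holding floral organ genes, the flowering repressor gene FLC and embryo genes off. SYD, a SWI/SNF ATPase, and its relative BRM are known to oppose Polycomb repression at floral organ genes.

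The mutated genes were examined first. SYD had 24.3 FPKM in the unlabelled condition, 4.11 FPKM in syd-5 and 23.1 FPKM in WT. In the authors' deposited table SYD fell in syd-5 against WT, with a log2 ratio of -2.49 (q = 0.000567). SWI3D, a core subunit of the complex, had 3.81 FPKM in the unlabelled condition, 16.0 FPKM in syd-5 and 16.4 FPKM in WT. In the authors' deposited table SWI3D fell in the unlabelled condition against WT, with a log2 ratio of -2.11 (q = 0.000567). No genotype was given to the unlabelled condition from these levels.

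None of the 10 Polycomb genes passed the authors' test in either comparison. At q < 0.05 in the authors' deposited table, made with Cuffdiff per the submitters' processing notes, 0 of 10 were called in the unlabelled condition against WT, where 28.1% of 18450 tested loci were called. In syd-5 against WT 0 of 10 were called in the authors' deposited table, against a background of 27.9% of 18442 tested loci. At an unadjusted p under 0.05 in the authors' deposited table, the members numbered 1 of 10 in the unlabelled condition, where 38.2% of all tested loci reached it. In syd-5 they numbered 4 of 10, against a background of 38% of tested loci, and these 4 were BMI1A, LHP1, CLF and SWN. With the authors' p adjusted by Benjamini-Hochberg within each comparison instead, BMI1A passed in both, as the only member to do so. The adjusted p of BMI1A was then 0.0438 in the unlabelled condition and 0.0481 in syd-5, with a background in each comparison of 29.6% of tested loci.

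Differences of the members from WT were small. In the unlabelled condition against WT the log2 ratios ran from -0.14 for EMF2 to 0.48 for CLF, with a median of 0.13, and 8 of 10 lay above 0. In syd-5 against WT they ran from -0.21 for EMF2 to 0.56 for CLF, with a median of 0.16, and 8 of 10 lay above 0. The medians over all tested loci were -0.02 in the unlabelled condition and 0.01 in syd-5. A log2 ratio above 0 was found for 48.3% of tested loci in the unlabelled condition and 51.2% in syd-5. Direction over the members was not tested. The median size of the log2 ratio, whatever its sign, was 0.14 over the members in the unlabelled condition and 0.29 over all tested loci, and in syd-5 it was 0.19 over the members and 0.29 over all tested loci. Of all tested loci, 32.0% in the unlabelled condition and 26.9% in syd-5 had a log2 ratio larger in size than that of CLF, the largest among the members. Both comparisons use the same WT values, so these 2 sets of ratios are not independent.

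**Figure D1:**
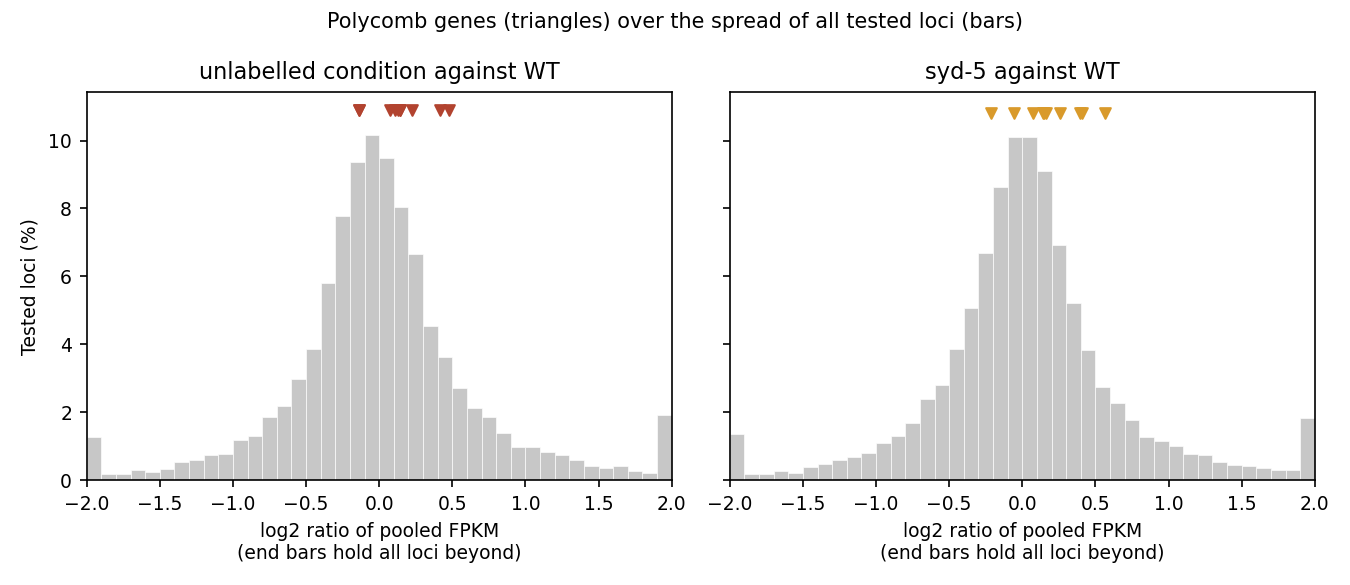
Percentage of all tested loci (grey bars, vertical axis) by log2 ratio of pooled FPKM (horizontal axis) in the unlabelled condition against WT and in syd-5 against WT, with the 10 Polycomb genes as triangles above the bars. The triangles lie between -0.14 and 0.48 in the unlabelled condition and between -0.21 and 0.56 in syd-5, within the central mass of the bars.

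The precision of each ratio was read from the authors' test statistic, as the size of the log2 ratio over the statistic, which gives an implied standard error. Over the members it ran from 0.227 to 0.593 in the unlabelled condition and from 0.226 to 0.581 in syd-5, beside medians over all tested loci of 0.294 and 0.295. Converted to a normal deviate, the authors' p exceeded the statistic by a median factor of 1.74 in each comparison, which means that smaller errors lie behind p. The intervals below come from the statistic and are the wider choice. A doubling lay outside the intervals of 8 of 10 members in both comparisons and inside those of CLF and MSI1. On the scale of the authors' p the upper ends for CLF were 0.9999 in the unlabelled condition and 1.08 in syd-5. For MSI1 these ends were 0.81 in the unlabelled condition and 0.80 in syd-5. A missed threshold does not show that a level was unchanged.

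Levels of the members differed more between genes than between conditions. The entry that holds MSI1 was highest in all 3 conditions, but it merges MSI1 with AT5G58190, AT5G58200 and AT5G58210, whose reads cannot be split. Among the other 9, the order in WT was EMF2, SWN, VRN2, FIE, LHP1, CLF, BMI1A, BMI1B and RING1A, and whether neighbours in it differ beyond their spread cannot be said without replicate values. The order differed at 2 places between conditions. SWN stood above EMF2 in the unlabelled condition and in syd-5 and below it in WT, and CLF stood above LHP1 in the unlabelled condition and below it in syd-5 and in WT. Among the loci that reached the filter, EMF2 stood at percentile 55.8 in the unlabelled condition, 54.0 in syd-5 and 58.3 in WT. RING1A stood at percentile 23.5 in the unlabelled condition, 24.2 in syd-5 and 25.8 in WT, and the other RING finger genes also lay below the middle of the expressed loci.

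**Figure D2:**
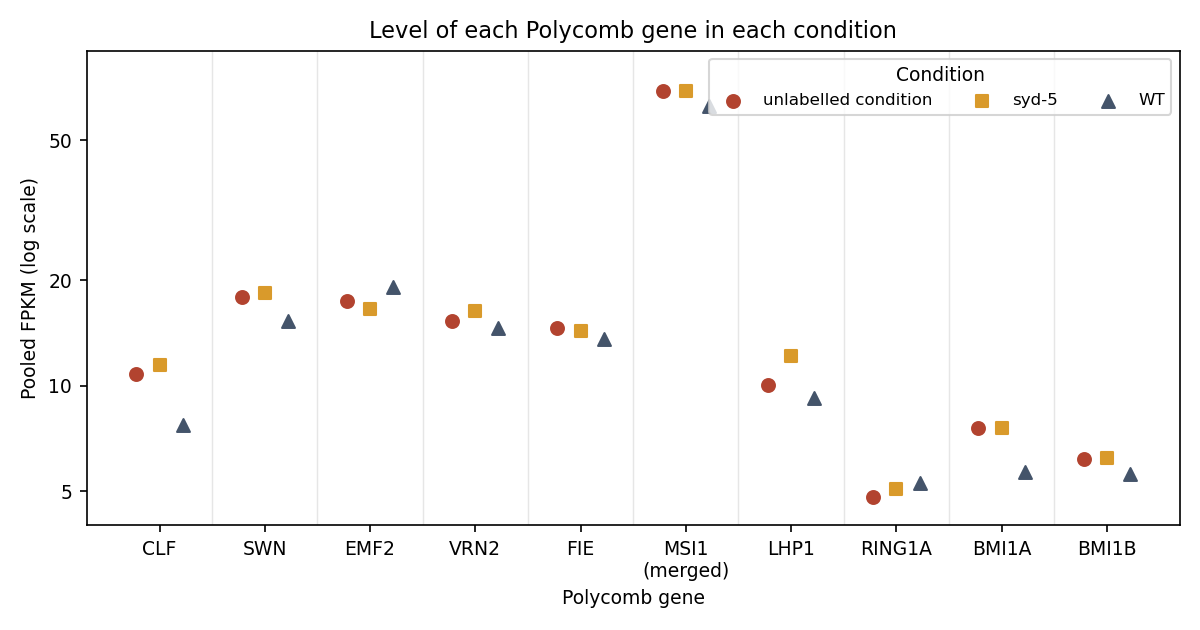
Pooled FPKM (log axis) of each Polycomb gene in the unlabelled condition (circles), syd-5 (squares) and WT (triangles), 1 value per gene and condition, so there are no error bars. EMF2 and RING1A are highest in WT and all other genes are lowest in WT. The merged entry of MSI1 stands above all others at 62.5 to 69.3 FPKM.

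CLF and SWN encode the histone methyltransferases of PRC2 outside the endosperm. CLF (AT2G23380), the enzyme known for silencing floral genes in leaves, had 10.8 FPKM in the unlabelled condition, 11.4 FPKM in syd-5 and 7.74 FPKM in WT. The values in both conditions were above the WT value. In the unlabelled condition the ratio to WT was 1.39-fold, a log2 ratio of 0.48 with an implied 95% interval from -0.42 to 1.38, which did not pass in the authors' deposited table (p = 0.0706, q = 0.207). In syd-5 it was 1.48-fold, a log2 ratio of 0.56 with an interval from -0.32 to 1.45, and it did not pass in the authors' deposited table either (p = 0.0339, q = 0.122). The interval of CLF reaches beyond a doubling in both comparisons.

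The position of the CLF entry, chromosome 2 from 9948759 to 9963644 (TAIR10), is shared with the entries of AT2G23360, AT2G23370 and AT2G23390, so it is a stretch of genes and not CLF alone. AT2G23390 had 33.0 FPKM in the unlabelled condition, 30.7 FPKM in syd-5 and 43.0 FPKM in WT, and AT2G23360 had 4.85 FPKM in the unlabelled condition, 5.61 FPKM in syd-5 and 7.64 FPKM in WT. Both neighbours stood lower than WT in the unlabelled condition and in syd-5, where CLF stood higher, and none of the 3 entries passed q < 0.05 in the authors' deposited table. The strand of the libraries is not given in the sources used here, and a part of shared reads in the CLF values was not tested.

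SWN (AT4G02020, chromosome 4 from 886600 to 891955), the methyltransferase that overlaps in function with CLF, had 17.8 FPKM in the unlabelled condition, 18.3 FPKM in syd-5 and 15.3 FPKM in WT. Both values were again above WT, by a smaller ratio than for CLF. The log2 ratio was 0.22 in the unlabelled condition (interval -0.22 to 0.67; q = 0.244 in the authors' deposited table) and 0.26 in syd-5 (interval -0.18 to 0.70; q = 0.146 in the authors' deposited table). SWN has an entry of its own and the smallest implied errors among the members, and a doubling lies outside both intervals. CLF made up 37.7% of the summed FPKM of CLF and SWN in the unlabelled condition, 38.4% in syd-5 and 33.6% in WT. The pooled FPKM of SWN was thus the higher throughout, and the spread behind each value is unknown. MEA, a PRC2 methyltransferase known from the endosperm, was under 1 FPKM in all 3 conditions.

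EMF2 and VRN2 encode alternative zinc finger subunits of PRC2, EMF2 known for preventing early flowering and VRN2 for keeping FLC silent after cold. EMF2 (AT5G51230, chromosome 5 from 20823553 to 20829564) had 17.4 FPKM in the unlabelled condition, 16.5 FPKM in syd-5 and 19.2 FPKM in WT. Among the PRC2 members it was the one with both values below WT. The log2 ratio of EMF2 was -0.14 in the unlabelled condition (interval -0.59 to 0.31; q = 0.531 in the authors' deposited table) and -0.21 in syd-5 (interval -0.66 to 0.24; q = 0.272 in the authors' deposited table). VRN2 (AT4G16845, chromosome 4 from 9476136 to 9479878) had 15.3 FPKM in the unlabelled condition, 16.3 FPKM in syd-5 and 14.6 FPKM in WT. The log2 ratio of VRN2 was 0.08 in the unlabelled condition (interval -0.42 to 0.57; q = 0.794 in the authors' deposited table) and 0.16 in syd-5 (interval -0.33 to 0.65; q = 0.486 in the authors' deposited table). The balance of the pair was 1.14 FPKM of EMF2 per FPKM of VRN2 in the unlabelled condition, 1.02 in syd-5 and 1.32 in WT. Change in that balance was not tested. FIS2, another gene of this kind, known from the seed, was listed at 0 in every condition.

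FIE and MSI1 encode WD40 repeat proteins shared by all forms of PRC2, and MSI1 also serves in a chromatin assembly factor. FIE (AT3G20740) had 14.6 FPKM in the unlabelled condition, 14.3 FPKM in syd-5 and 13.6 FPKM in WT. These 3 values lay close together. The log2 ratio of FIE was 0.11 in the unlabelled condition (interval -0.77 to 0.98; q = 0.840 in the authors' deposited table) and 0.07 in syd-5 (interval -0.82 to 0.97; q = 0.895 in the authors' deposited table). Its position, chromosome 3 from 7239808 to 7252512, is shared with the merged entry of AT3G20720 and AT3G20730, and its error was above the median of all loci. The merged entry with MSI1 (AT5G58230, chromosome 5 from 23546304 to 23567209) had 69.1 FPKM in the unlabelled condition, 69.3 FPKM in syd-5 and 62.5 FPKM in WT. The log2 ratio of the MSI1 entry was 0.15 in the unlabelled condition (interval -1.02 to 1.31; q = 0.834 in the authors' deposited table) and 0.15 in syd-5 (interval -0.99 to 1.29; q = 0.827 in the authors' deposited table). These intervals are the widest among the members and both hold a doubling, while a halving lies inside that of the unlabelled condition and just outside that of syd-5. The position of the MSI1 entry is also shared with 3 further entries, none of which passed q < 0.05 in the authors' deposited table. The merged entry of AT5G58250 and AT5G58270 had 245 FPKM in the unlabelled condition, 235 FPKM in syd-5 and 289.7 FPKM in WT, and that of AT5G58240 and AT5G58260 had 139 FPKM in the unlabelled condition, 125 FPKM in syd-5 and 182 FPKM in WT. AT5G58220 had 51.0 FPKM in the unlabelled condition, 59.9 FPKM in syd-5 and 42.7 FPKM in WT. A part of shared reads in the MSI1 values was not tested.

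LHP1 (AT5G17690, named TFL2 in the RefSeq gene table) encodes a chromodomain protein that binds the methyl mark set by PRC2. It had 10.1 FPKM in the unlabelled condition, 12.1 FPKM in syd-5 and 9.22 FPKM in WT. The value in syd-5 was the highest of the 3, while that in the unlabelled condition was near WT. In the unlabelled condition the log2 ratio was 0.13, with an interval from -0.45 to 0.70, and it did not pass in the authors' deposited table (p = 0.441, q = 0.671). In syd-5 it was 0.39, a 1.31-fold ratio, with an interval from -0.17 to 0.96, and it did not pass in the authors' deposited table (p = 0.0180, q = 0.0757). The difference of the unlabelled condition from syd-5 was -0.27 with an interval from -1.07 to 0.54, the largest in size between those conditions among the members. The LHP1 entry, chromosome 5 from 5822806 to 5829759, shares its position with AT5G17680, which stayed under 1 FPKM in all 3 conditions.

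RING1A, BMI1A and BMI1B encode RING finger proteins of PRC1, which attach ubiquitin to histone H2A. BMI1A (AT2G30580, named DRIP2 in the RefSeq gene table, chromosome 2 from 13025970 to 13030661) had 7.58 FPKM in the unlabelled condition, 7.55 FPKM in syd-5 and 5.69 FPKM in WT. Both values were above WT and nearly equal to each other. The ratio was 1.33-fold in the unlabelled condition, a log2 ratio of 0.41 with an interval from -0.16 to 0.99 (p = 0.0123, q = 0.0563 in the authors' deposited table). In syd-5 the ratio was 1.33-fold, a log2 ratio of 0.41 with an interval from -0.17 to 0.98 (p = 0.0138, q = 0.0616 in the authors' deposited table). With errors on the scale of the authors' p the interval was 0.09 to 0.74 in the unlabelled condition and 0.08 to 0.73 in syd-5. The choice of error thus decides whether the interval of BMI1A holds 0. In syd-5 it also decides this for CLF (0.04 to 1.08 on the scale of p), SWN (0.008 to 0.51) and LHP1 (0.07 to 0.72). BMI1A was the member nearest to the threshold in both comparisons.

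BMI1B (AT1G06770, named DRIP1 in the RefSeq gene table, chromosome 1 from 2078904 to 2081939), the close relative of BMI1A, had 6.18 FPKM in the unlabelled condition, 6.20 FPKM in syd-5 and 5.61 FPKM in WT. The log2 ratio of BMI1B was 0.14 in the unlabelled condition (interval -0.47 to 0.75; q = 0.659 in the authors' deposited table) and 0.15 in syd-5 (interval -0.46 to 0.76; q = 0.647 in the authors' deposited table). BMI1A made up 55.1% of the FPKM of the pair in the unlabelled condition, 54.9% in syd-5 and 50.3% in WT. RING1A (AT5G44280, chromosome 5 from 17835849 to 17839254), the lowest of the members, had 4.81 FPKM in the unlabelled condition, 5.08 FPKM in syd-5 and 5.29 FPKM in WT. The log2 ratio of RING1A was -0.14 in the unlabelled condition (interval -0.75 to 0.48; q = 0.669 in the authors' deposited table) and -0.06 in syd-5 (interval -0.67 to 0.56; q = 0.879 in the authors' deposited table). Its relative RING1B had 5.02 FPKM in the unlabelled condition, 5.39 FPKM in syd-5 and 4.23 FPKM in WT, so RING1B stood above RING1A in the unlabelled condition and in syd-5, and below it in WT. In neither comparison of the authors' deposited table did RING1B pass, with q = 0.584 in the unlabelled condition and q = 0.430 in syd-5.

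**Figure D3:**
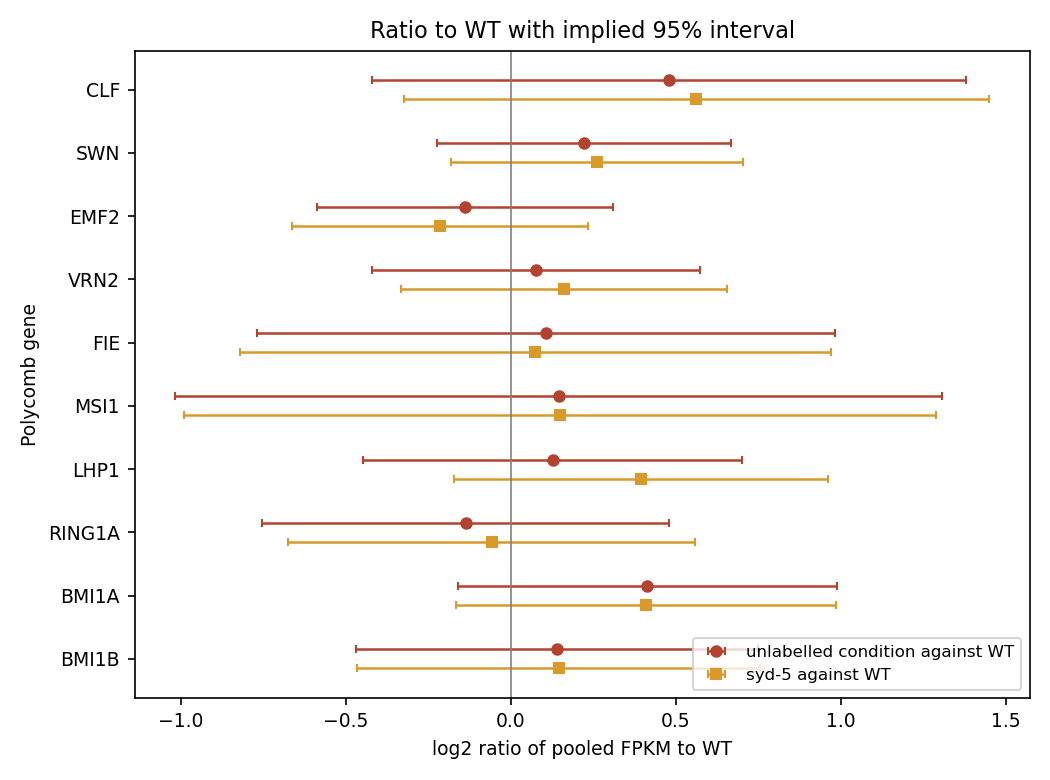
Log2 ratio of pooled FPKM to WT (horizontal axis) for each Polycomb gene in the unlabelled condition (circles) and syd-5 (squares), with bars for the 95% interval implied by the authors' test statistic. Every interval holds 0, the points run from -0.21 to 0.56, and the intervals of CLF, FIE and MSI1 are the widest.

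The direct comparison was the difference of the log2 ratios, the unlabelled condition minus syd-5, which ran from -0.27 for LHP1 to 0.07 for EMF2, with a median of -0.02. None of the 10 members passed an adjusted p of 0.05 in a two-sided normal test on the implied errors with Benjamini-Hochberg adjustment over 18382 loci, and 0 had an unadjusted p under 0.05. The same test called 0.0163% of those loci, SYD and SWI3D among them, and 0.245% had an unadjusted p under 0.05. It counts the error of WT in both ratios and takes the wider errors from the statistic, and both make it conservative by its formula. How far was not tested. With 0.245% of all loci under an unadjusted p of 0.05, the 0 of 10 members says little about them. The interval was narrowest for SWN, from -0.67 to 0.59, so a difference of a doubling lay outside it for SWN and inside it for CLF (-1.35 to 1.18).

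The other genes of the pathway were taken from 4 lists, for which the backgrounds of called loci are those above. The list of other PRC2 genes holds 10, of which 7 were tested. By the authors' deposited table, called members at q < 0.05 numbered 0 of 7 in the unlabelled condition and 0 of 7 in syd-5, and 1 of 7 and 0 of 7 had an unadjusted p under 0.05. Their median log2 ratio was -0.09 in the unlabelled condition and -0.01 in syd-5. VEL1 and VRN5 encode proteins that join PRC2 for silencing of FLC after cold. VEL1 had 42.2 FPKM in the unlabelled condition, 39.0 FPKM in syd-5 and 37.4 FPKM in WT. VRN5 had 11.5 FPKM in the unlabelled condition, 11.0 FPKM in syd-5 and 11.1 FPKM in WT. The cold-induced partner VIN3 was under 1 FPKM in all 3 conditions.

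Among 18 other PRC1 genes and recruiters, all tested, the authors' deposited table called 1 rise and 2 falls in the unlabelled condition and 1 rise and 1 fall in syd-5. These calls are 16.7% of the list in the unlabelled condition and 11.1% in syd-5, below the backgrounds of 28.1% and 27.9%. The median log2 ratio of this list was -0.07 in the unlabelled condition and -0.07 in syd-5. BPC1, which encodes a factor that binds GA-rich DNA and is known to recruit PRC2, had 21.5 FPKM in the unlabelled condition, 19.3 FPKM in syd-5 and 12.6 FPKM in WT. BPC1 rose in the authors' deposited table by a log2 ratio of 0.77 in the unlabelled condition and 0.61 in syd-5 (q = 0.000567 in each). VRN1, a DNA-binding protein that keeps FLC silent, had 26.6 FPKM in the unlabelled condition, 28.4 FPKM in syd-5 and 34.3 FPKM in WT. In the unlabelled condition VRN1 fell in the authors' deposited table, with a log2 ratio of -0.37 (q = 0.0280), and stood at -0.27 in syd-5 (q = 0.134). The difference of VRN1, the unlabelled condition minus syd-5, was -0.10, with an implied standard error of 0.325 and an unadjusted two-sided p of 0.768 by the normal test. The other fall was the entry of BMI1C, which is merged with the plastid splicing gene CFM3A, so it cannot be assigned to BMI1C. That entry had a log2 ratio of -0.53 in the unlabelled condition (q = 0.0131) and -0.61 in syd-5 (q = 0.0160) in the authors' deposited table.

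Of 12 listed Polycomb antagonists 11 were tested, and the authors' deposited table called 3 rises and 0 falls in the unlabelled condition and 2 rises and 0 falls in syd-5, with median log2 ratios of -0.003 in the unlabelled condition and 0.12 in syd-5. The called share was 27.3% in the unlabelled condition and 18.2% in syd-5, not above the backgrounds of 28.1% and 27.9% for calls in either direction. Rises alone made up 13.7% of tested loci in the unlabelled condition and 13.8% in syd-5, and with 11 genes the list gives no test of a direction. ULT1, a trithorax group factor that relieves Polycomb repression in floral meristems, had 14.9 FPKM in the unlabelled condition, 12.3 FPKM in syd-5 and 7.80 FPKM in WT. ULT1 rose in the authors' deposited table by a log2 ratio of 0.94 in the unlabelled condition (q = 0.000567) and 0.66 in syd-5 (q = 0.00389). JMJ13, a demethylase of the Polycomb mark, had 7.02 FPKM in the unlabelled condition, 7.26 FPKM in syd-5 and 5.23 FPKM in WT. JMJ13 rose in the authors' deposited table by a log2 ratio of 0.42 in the unlabelled condition (q = 0.0391) and 0.47 in syd-5 (q = 0.0201). ATXR7, a histone H3 lysine methyltransferase of the trithorax group that has 2 entries, rose at the more abundant one by 0.43 in the unlabelled condition (q = 0.0213) and stood at 0.33 in syd-5 (q = 0.102) in the authors' deposited table. The related demethylase genes REF6 and ELF6, the remodeller gene PKL and the ATPase gene BRM passed in neither comparison.

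**Figure D4:**
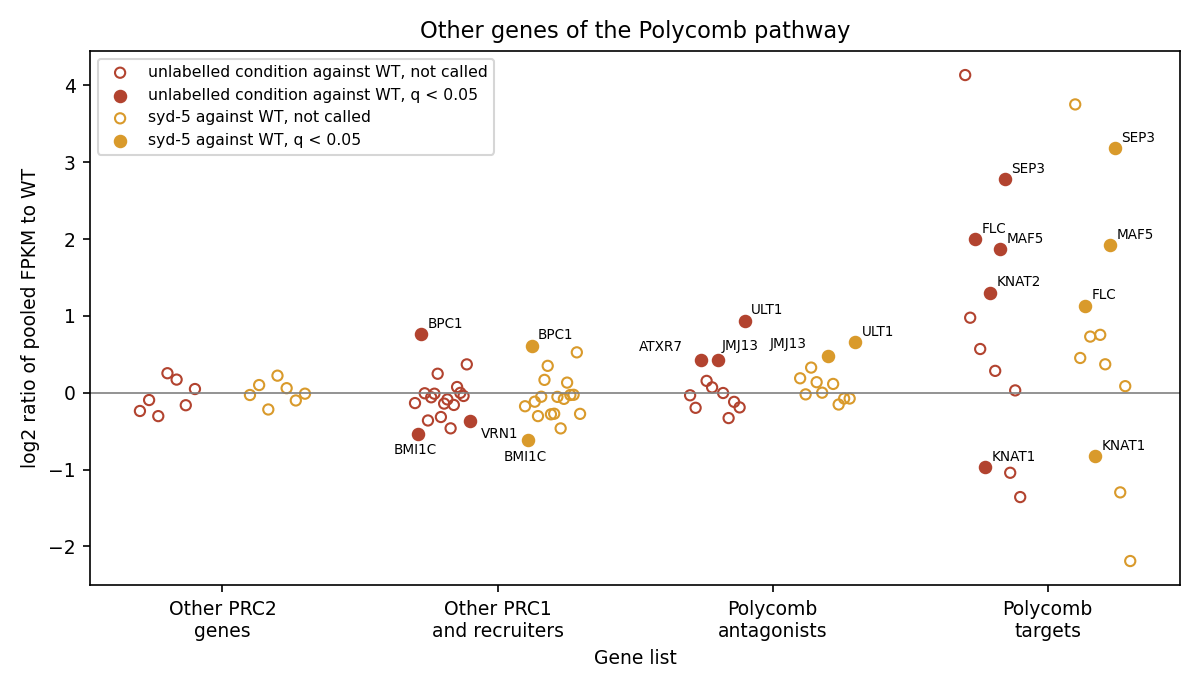
Log2 ratio of pooled FPKM to WT (vertical axis) for each tested gene of 4 lists, in the unlabelled condition (red) and syd-5 (yellow), with filled points for the authors' q < 0.05 and open points for the rest. SEP3 at 2.78 and 3.18 is the highest filled point of each comparison, and no point of the other PRC2 genes is filled.

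Of 25 classical Polycomb targets, 13 stayed under 1 FPKM in all conditions, among them the embryo genes LEC1, LEC2, FUS3 and ABI3, and 12 were tested. Of the 13, 3 were listed at 0 in all conditions. The calls of the authors' deposited table were 4 rises and 1 fall in the unlabelled condition, and 3 rises and 1 fall in syd-5. In WT 3 of the 12 were under 1 FPKM and entered through syd-5 or the unlabelled condition alone, so the share of rises in this list is not read against the background. SEP3, a floral organ identity gene, had 14.7 FPKM in the unlabelled condition, 19.4 FPKM in syd-5 and 2.14 FPKM in WT. The flowering repressor gene FLC had 15.6 FPKM in the unlabelled condition, 8.53 FPKM in syd-5 and 3.89 FPKM in WT, and its relative MAF5 had 15.1 FPKM in the unlabelled condition, 15.7 FPKM in syd-5 and 4.14 FPKM in WT. All 3 rose in both comparisons in the authors' deposited table (q = 0.000567 in each). KNAT1, a meristem homeobox gene, fell in both comparisons in the authors' deposited table (q = 0.000567 in each), with 4.21 FPKM in the unlabelled condition, 4.66 FPKM in syd-5 and 8.22 FPKM in WT. KNAT2 rose in the unlabelled condition in the authors' deposited table (q = 0.0293), at 1.31 FPKM in the unlabelled condition, 0.895 FPKM in syd-5 and 0.530 FPKM in WT. KNAT2 reached the filter through the unlabelled condition alone, where it was called, so its rise is not independent of the filter. AP3, the floral gene outside these calls with the largest ratio, had 1.41 FPKM in the unlabelled condition, 1.08 FPKM in syd-5 and 0.0805 FPKM in WT, and it did not pass in the authors' deposited table (q = 0.137 in each).

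Some markers of root tissue and of dividing cells were called in the same comparisons. In whole seedlings fewer cells of a type and less RNA per cell cannot be told apart. Among the root markers CASP1 changed most in FPKM, with 43.4 FPKM in the unlabelled condition, 52.7 FPKM in syd-5 and 24.6 FPKM in WT. By log2 ratio CASP5 changed most, at 1.65 in the unlabelled condition and 1.84 in syd-5. SCR and EXP7 stood below WT in the unlabelled condition and in syd-5, and the other root markers above it. PLT1 and PLT2 were under 1 FPKM in WT and reached the filter through the other conditions alone. Their place above WT is therefore not read as a result, and neither was called. The 8 root markers summed to 111 FPKM in the unlabelled condition, 123 FPKM in syd-5 and 94.6 FPKM in WT. Of these, by the authors' deposited table, 2 rose and 1 fell in the unlabelled condition, and 3 rose and 0 fell in syd-5, which is 37.5% of the list in each, beside backgrounds of 28.1% in the unlabelled condition and 27.9% in syd-5. The 6 entries of dividing cell markers summed to 188.8 FPKM in the unlabelled condition, 245 FPKM in syd-5 and 267 FPKM in WT, and 3 fell and 0 rose in each comparison in the authors' deposited table, 50% of the list beside the same backgrounds. The 3 entries that fell were PCNA1, MCM2 and HTR2. Most of each sum is HTR2, a histone H3 gene merged with AT1G09190 and AT1G09195. HTR2 had 118 FPKM in the unlabelled condition, 135 FPKM in syd-5 and 176 FPKM in WT. The sum in syd-5 also holds the entry of CYCB1;1 merged with AT4G37483, which had 10.6 FPKM in the unlabelled condition, 36.5 FPKM in syd-5 and 5.84 FPKM in WT and was not called in the authors' deposited table. CDKB2;1 also stood above WT, with log2 ratios of 0.22 in the unlabelled condition and 0.45 in syd-5. KNOLLE stood at -0.22 in the unlabelled condition and 0.06 in syd-5. Neither CDKB2;1 nor KNOLLE was called, so the falls did not extend to all dividing cell markers. No marker of either list was listed at 0. The part of these tissues in the Polycomb gene values was not tested.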

How the data were processed

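RNA from whole seedlings was sequenced in pairs of reads, per the labels' protocols. Cuffdiff 2.1.1, TopHat2 2.1.1, Cufflinks 2.1.1 and, as the genome, TAIR10 stand in the submitters' processing notes. Their settings and the strandedness of the reads are not given here. The authors deposited FPKM as 1 pooled value per locus and condition, with a test statistic (a score), a p-value and a q-value per comparison with WT, per the file headers.

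Log2 ratios were computed from the FPKM values without a pseudocount, with Python 3.11.15 and scipy 1.17.1. A locus was counted as tested where the authors marked it so and it had at least 1 FPKM in a condition, and called at the authors' q < 0.05. Where a gene had several entries, the one with the highest mean FPKM was taken. Intervals are the log2 ratio with the normal 95% range of its implied standard error. The difference between the unlabelled condition and syd-5 was tested as the difference of both log2 ratios over the root of their summed squared errors. This test was also run on simulated data with independent errors for both ratios. Its behaviour with a shared WT, as here, was therefore not tested. Positions count from 1: after adding 1 to each start, 36.4% of 28922 entries with 1 gene name began where the RefSeq gene (assembly TAIR10.1) begins, against 0.38% before. All 10 members matched that gene table by locus tag. No sequence of the members was used here.

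The members and lists were chosen with earlier results of these data known. Named genes are all members, the mutated genes, and up to 5 called genes per list. VEL1, VRN5, RING1B, AP3, the neighbours at shared positions and the other genes named without a call were added with their values known. Alternatives were a q of 0.01, an adjustment within each comparison, a minimum of a doubling or halving, filters of 0 and 5 FPKM, entries with 1 gene name, errors on the scale of p, pseudocounts of 1 and 0.1, quantile normalization and centring on the median locus. The adjustment within each comparison for the lists, and the members' median over entries with 1 gene name, were chosen after seeing the data.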

Additional observations from a re-analysis of the deposited data

How the results depend on the processing

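As reported, the count of called members was 0 in each comparison. An adjustment within each comparison gave 1 in the unlabelled condition and 1 in syd-5 (BMI1A in both). The cause of that shift from the authors' q was not tested. AP3 had p = 0.04 and q = 0.137 in both comparisons of the authors' deposited table. The other alternatives run gave 0. Against WT these reuse the authors' q, and all members reached both FPKM filters, so they could not raise the count. Between the unlabelled condition and syd-5, errors on the scale of p called 0 of 18382 loci, SYD and SWI3D included. In that setting 1.08% of loci had an unadjusted p under 0.05 by the normal test. A count of 0 over all loci does not set the members apart from the rest. With q < 0.01 the called loci numbered 1 in the unlabelled condition and 1 in syd-5 for the other PRC1 genes and recruiters, and likewise 1 and 1 for the antagonists. Over entries with 1 gene name the other PRC1 genes and recruiters had 2 in the unlabelled condition and 1 in syd-5, since the merged entry of BMI1C drops out. An adjustment within each comparison gave this list 4 in the unlabelled condition, against 3 as reported, and gave the Polycomb targets 6 in syd-5, against 4 as reported. No member's ratio to WT changed sign under a pseudocount, quantile normalization or centring. For the unlabelled condition against syd-5, centring on the median locus turned MSI1 to 0.0239, BMI1B to 0.0239 and the members' median to 0.00693 in log2, and quantile normalization turned BMI1B to 0.00663. No paired analysis was possible because the table holds 1 pooled value per condition, and leaving out a replicate was not possible for the same reason. The missing depth leaves the floor of low values, such as those of AP3, unknown.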
